A study of Mus musculus with 4 samples.

Results

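The 7 keratin genes of the basal epithelial layer and of stressed epithelium (Krt5, Krt14 and Krt15, and Krt6a, Krt6b, Krt16 and Krt17) were examined for cytosine methylation in hair matrix keratinocytes, the dividing cells at the base of the follicle, sorted from mice of postnatal day 4.5. The libraries came from 2 samples of Tet2/Tet3 double-knockout mice carrying Krt14-Cre (DKO) and 2 samples of WT mice, measured by whole-genome bisulfite sequencing. The labels do not say whether the WT mice carried the Cre, nor whether each library is from its own animal. The genes were chosen by name, and their regions by position. Each listed region that overlapped a gene body or the 5 kb on either side of it was taken, which gave 52 distinct regions of the 484555 in the authors' deposited table and all 7 genes of 21896 protein-coding genes in the RefSeq gene table (GRCm38). Levels are the authors' group means over a region, converted to percent, and a difference is the DKO level less the WT level, in percentage points.

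Keratins form intermediate filaments as pairs of an acidic type I and a basic type II chain, and each pair marks a layer or a state of the epithelium. Krt5 (type II) and Krt14 (type I) are the pair of the dividing basal layer and of the outer root sheath, and Krt15 is a basal type I keratin used as a marker of the hair follicle bulge. Krt6a and Krt6b (type II) pair with Krt16 and Krt17 (type I), which are made in the follicle's companion layer and outer sheath and are induced in epidermis by wounding and other stress. The TET dioxygenases convert 5-methylcytosine to oxidised forms on the way to unmethylated cytosine, and bisulfite sequencing reads 5-methylcytosine and 5-hydroxymethylcytosine alike. The Cre in the DKO mice is named for the promoter of one of the examined genes, Krt14, which is active across the epithelium including the progenitors of the hair matrix. Whether the Cre is an added transgene or sits in the Krt14 locus was not stated in the labels.

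The table lists only regions that passed the authors' bound on a statistic, gives no value per library and no read depth, and no difference here has a replicate check or a test. The spread estimate quoted beside a difference is the authors' own, multiplied here to points, and neighbouring regions can share it. How it was computed is not given, and a difference divided by it does not return the authors' statistic. At Krt14, the region with a difference of 53.1 points and a spread estimate of 4.05 has an extreme statistic of -7.06. Group 1 of the table was taken to be the WT because its title names the WT first, so all directions rest on that reading. A region is called gained where its mean was at least 20 points higher in the DKO. Of the 52 distinct keratin regions, 18 were gained (34.6%), and all 18 had a negative extreme statistic. The share among all listed regions was 22.9%. The other 34 had a positive extreme statistic, although 24 of them had a slightly higher mean in the DKO, so being listed does not by itself give a direction. No region of the keratins was 10 or more points lower in the DKO. Such regions made up 2.54% of all listed regions, and 8.49% of all gene windows held one. The largest difference in that direction was -6.03 points.

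Transcription starts were available from the RefSeq promoter table (GRCm38.p6) for Krt5 and Krt14, both on the minus strand, so that their starts lie towards the higher coordinates. The sequences run 5′ to 3′ over 250 bases before and 50 bases after the listed start, with CG dinucleotides, the sites that mammalian DNA methylation mostly uses, in capitals. They are shown because both overlap listed regions of low methylation in either genotype, the Krt14 window only in part. The Krt5 window is chr15:101712856-101713155, and the Krt14 window is chr11:100205981-100206280, which lies inside the gene, its start 1480 bp from the gene's higher-coordinate end.
Krt5: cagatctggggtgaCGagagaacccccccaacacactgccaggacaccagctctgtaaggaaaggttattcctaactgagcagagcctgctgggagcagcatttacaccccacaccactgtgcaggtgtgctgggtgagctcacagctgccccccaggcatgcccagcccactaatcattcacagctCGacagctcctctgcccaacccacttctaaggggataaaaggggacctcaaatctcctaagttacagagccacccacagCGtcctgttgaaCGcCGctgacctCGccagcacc
Krt14: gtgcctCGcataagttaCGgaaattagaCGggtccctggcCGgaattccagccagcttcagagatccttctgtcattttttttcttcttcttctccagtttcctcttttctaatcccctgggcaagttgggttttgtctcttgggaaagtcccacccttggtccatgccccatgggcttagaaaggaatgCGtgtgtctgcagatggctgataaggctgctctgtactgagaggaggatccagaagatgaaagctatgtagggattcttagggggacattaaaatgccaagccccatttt
The Krt5 window holds 6 CG dinucleotides and the Krt14 window 5, against a median of 7 (interquartile range 3 to 20) over 32851 promoter windows of the table. On either strand, neither window contains TGANTCA (the AP-1 motif, in 7.81% of all windows), GCCNNNGGC (AP-2, in 16.6%) or TATAAA (the TATA box, in 13.6%). The sequence at the higher-coordinate end of Krt14 was not searched. The Krt5 window holds 1 match to TGACNNNGC (the core of the antioxidant response element, in 12.4% of all windows), downstream of the start. This match contains a CG dinucleotide. Both printed windows fall at least partly into listed regions that were low in both genotypes, at 14.1% in the DKO and 9.66% in the WT for Krt5, and at 15.8% in the DKO and 16.4% in the WT for Krt14.

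**Figure D1:**
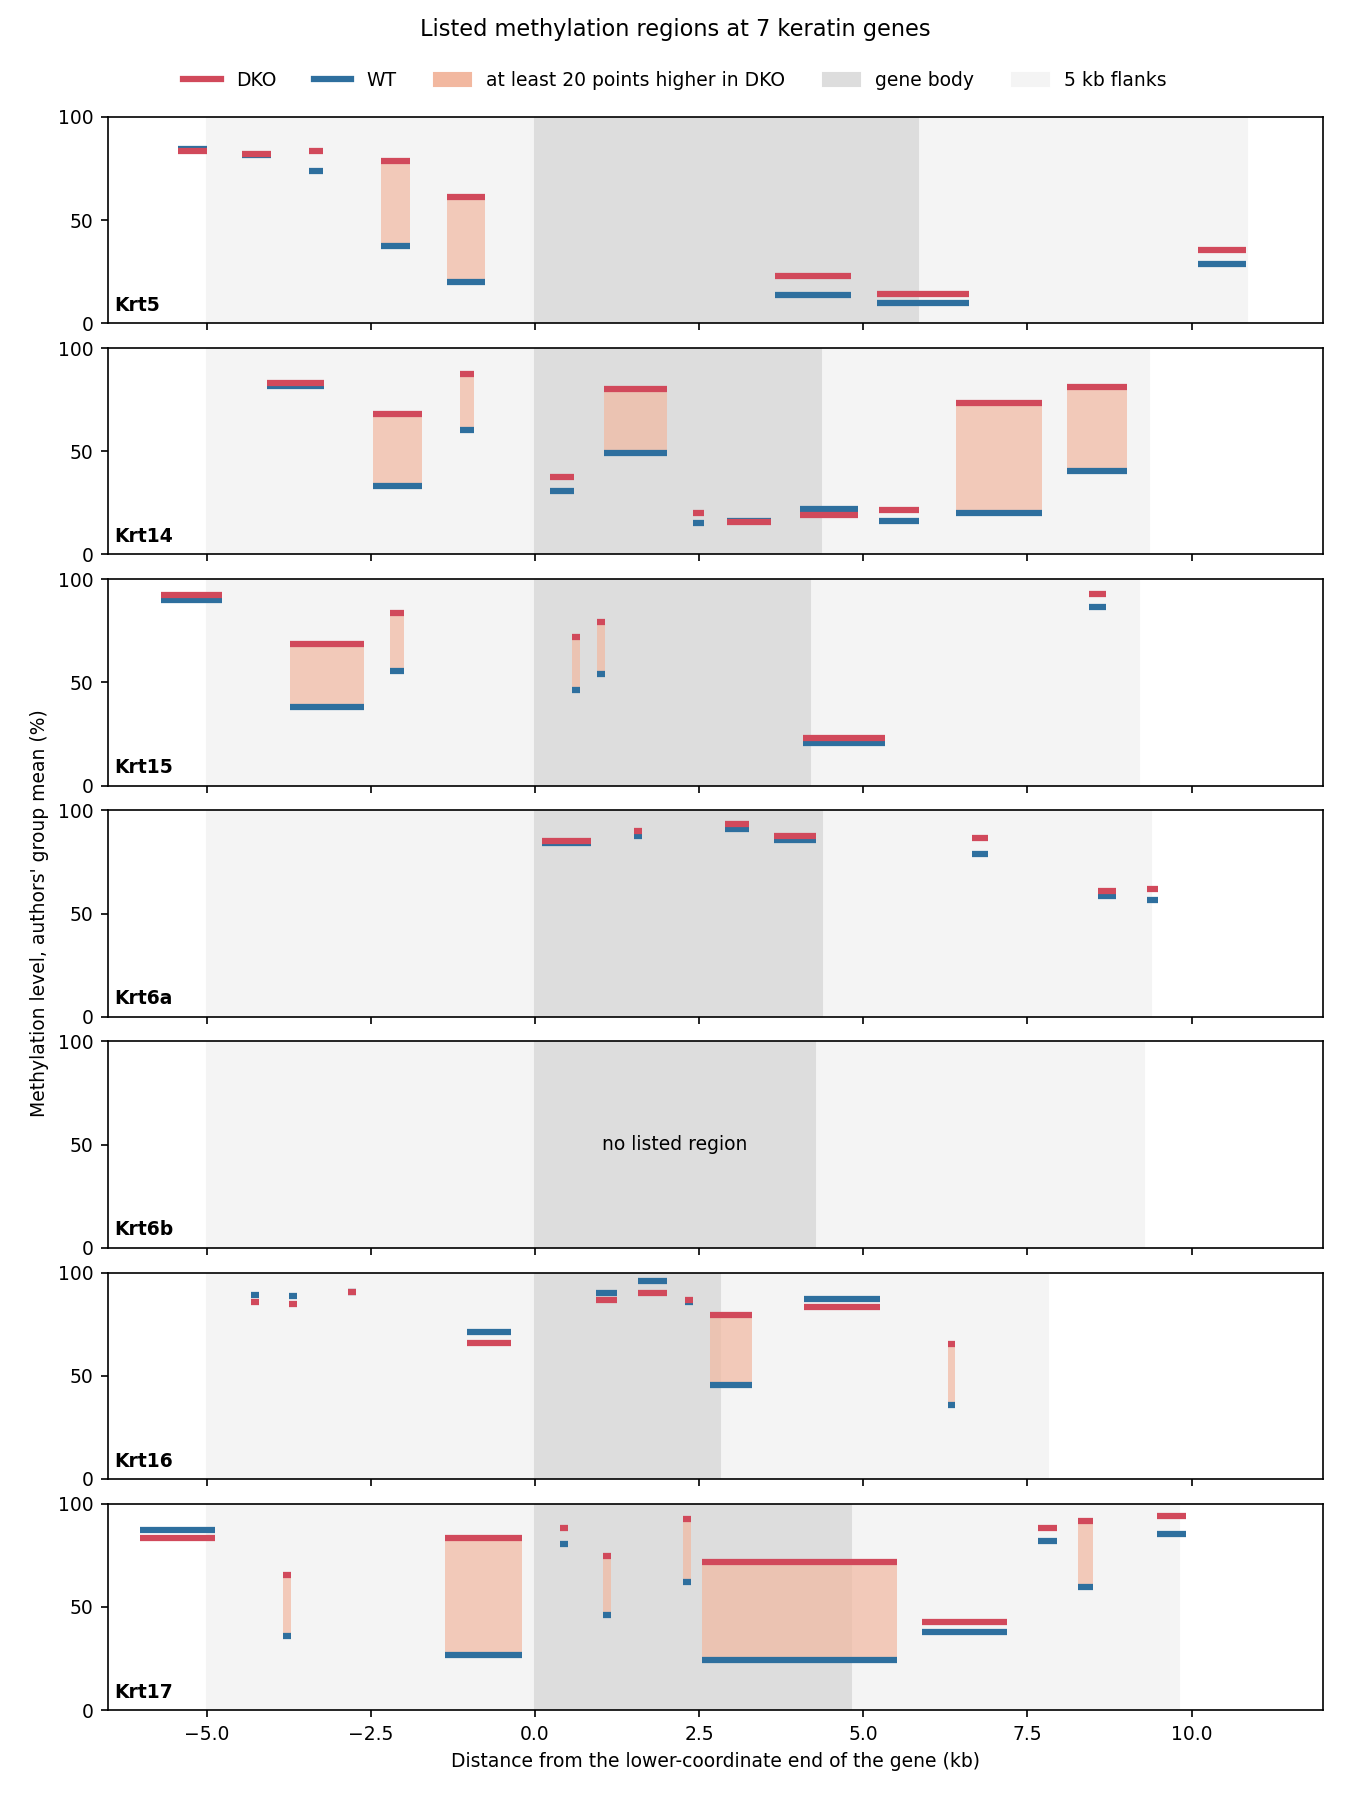
Methylation level (%, authors' group means) of every listed region at the 7 keratins, against the distance in kb from the lower-coordinate end of the gene. Red bars are the DKO, blue bars the WT, orange fills mark gained regions, dark grey is the gene body and light grey the 5 kb flanks. Very short regions are drawn wider to be visible. Krt14 and Krt17 held 5 and 6 gained regions, Krt6a held none, and no region was listed at Krt6b.

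Krt5, the type II chain of the basal layer, had 8 listed regions, of which 2 were gained, both beyond the lower-coordinate end, which is the 3′ side. At chr15:101705731-101706305, 764 bp past that end, the level was 61.2% in the DKO and 20.2% in the WT (41.0 points, spread estimate 3.64 in the authors' deposited table, 16 cytosine positions). At chr15:101704720-101705169, 1900 bp past it, the level was 78.8% in the DKO and 37.4% in the WT (41.4 points, spread estimate 3.64 in the authors' deposited table). Farther out, the DNA was highly methylated in both genotypes. The 3 listed regions there stood between 82.2% and 83.5% in the DKO, against 73.7% to 84.6% in the WT. The region across the start, chr15:101712279-101713680, was the lowest of all 52 in both genotypes (14.1% in the DKO and 9.66% in the WT, 62 positions). The region inside the gene, chr15:101710727-101711881, stood at 22.8% in the DKO and 13.8% in the WT, 8.93 points apart at a spread estimate of 5.32 in the authors' deposited table. The 4.42 kb between it and the gained regions hold 112 cytosine positions by the table's running number and no listed region, so the level over most of the Krt5 body is not given.

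Krt14, the type I partner of Krt5, had 11 listed regions and 5 gained ones on both sides of a low stretch around its higher-coordinate end. The largest difference was upstream, at chr11:100209581-100210879, 2071 bp beyond that end, with 73.4% in the DKO and 20.2% in the WT (53.1 points, spread estimate 4.05 in the authors' deposited table, 33 positions). The next region upstream, chr11:100211259-100212176, had 81.4% in the DKO and 40.6% in the WT. Inside the gene, chr11:100204214-100205178 had 80.4% in the DKO and 49.2% in the WT over 61 positions. This region comes within 1 kb of the start in the promoter table, which itself lies 1480 bp inside the gene. Past the 3′ end, chr11:100200694-100201437 had 68.0% in the DKO and 33.2% in the WT, and the short chr11:100202017-100202232, of 4 positions, had 87.3% in the DKO and 60.2% in the WT. Between the gained regions, 4 listed regions in a row over the 5′ part of the gene and its flank were under 25% in both genotypes. Their levels were 20.1%, 15.8%, 19.2% and 21.6% in the DKO, against 15.2%, 16.4%, 22.0% and 16.0% in the WT, and 2 of them had the lower mean in the DKO. The upstream region 2071 bp out was thus within the range of this low stretch in the WT and far above it in the DKO.

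Krt15, the bulge-associated type I keratin, had 7 listed regions, of which 4 were gained, by 25.1 to 30.8 points. The widest, chr11:100128025-100129151, 2608 bp beyond the lower-coordinate end, had 68.8% in the DKO and 38.0% in the WT (30.8 points, spread estimate 3.57 in the authors' deposited table, 28 positions). The other 3 gained regions were short, with 4, 2 and 4 positions, and stood at 83.5%, 71.9% and 79.3% in the DKO, against 55.7%, 46.5% and 54.1% in the WT. Those of 2 and 4 positions inside the gene, chr11:100132389-100132390 and chr11:100132724-100132801, overlap the 1 kb from the lower-coordinate end, the second only in part. They have the smallest gains of the 18, and no listed keratin region differed by between 9.65 and 25.1 points. Across the higher-coordinate end, chr11:100135835-100137088 was low in both genotypes, at 23.0% in the DKO and 20.7% in the WT over 34 positions.

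Counted together, 7 of the 52 keratin regions were under 25% in both genotypes, and all belonged to the basal keratins, with 2 at Krt5, 4 at Krt14 and 1 at Krt15. Their levels ran from 14.1% to 23.0% in the DKO and from 9.66% to 22.0% in the WT, and 5 of the 7 had the higher mean in the DKO. The spread estimates there had a median of 5.32 points in the authors' deposited table, against 3.57 in the gained keratin regions.

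**Figure D2:**
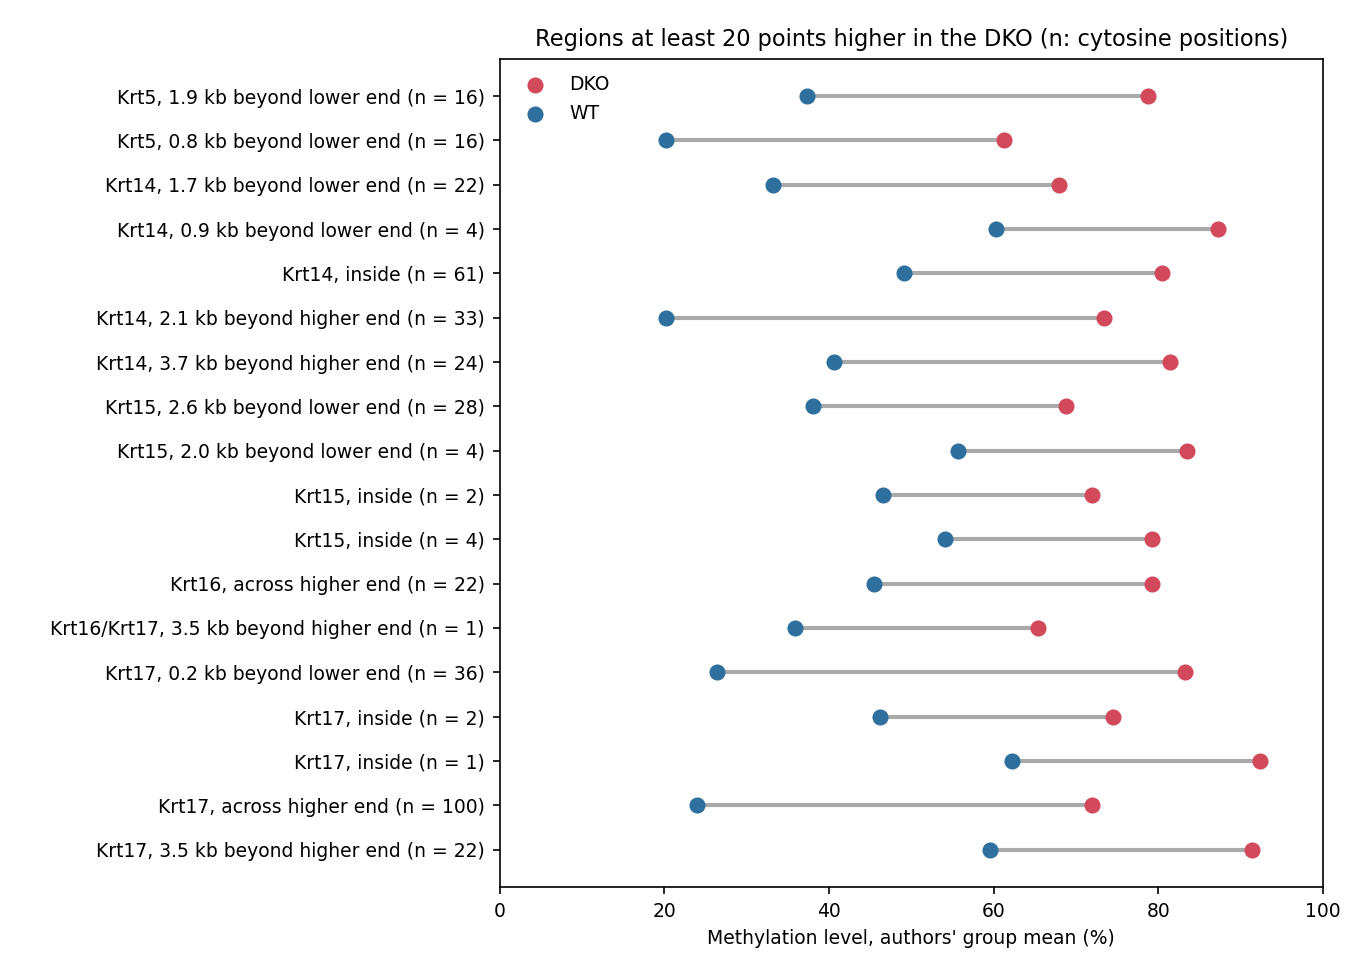
The 18 gained regions at the keratins, with the level in % (authors' group means) on the x axis, red points for the DKO, blue points for the WT and a grey line joining them, and n as the number of cytosine positions. The DKO points lie between 61.2% and 92.3% and the WT points between 20.2% and 62.2%, and the widest differences are at Krt17 and Krt14.

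Krt17, a type I keratin of stressed epidermis and of the outer root sheath, had 11 listed regions and the most gained ones, 6. The widest, chr11:100258761-100261731, covers 2971 bp across the higher-coordinate end with 100 positions, and its level was 72.0% in the DKO and 24.0% in the WT (47.9 points, spread estimate 3.58 in the authors' deposited table). At the other end, chr11:100254845-100256021, 194 bp outside the gene, had 83.3% in the DKO and 26.5% in the WT, and its 56.8 points were the largest difference of the 52 regions (spread estimate 3.72 in the authors' deposited table). Another gained region of 22 positions, chr11:100264482-100264708, had 91.4% in the DKO and 59.5% in the WT and lies in the body of the neighbouring gene Krt42. The remaining gained regions at Krt17 were of 1 or 2 positions, with 65.4%, 74.5% and 92.3% in the DKO and 35.8%, 46.2% and 62.2% in the WT. Just past the wide region, chr11:100262108-100263406, which runs into Krt42, stood at 42.5% in the DKO and 38.0% in the WT, 4.57 points apart. Unlike the basal keratins, Krt17 had no listed region under 25% in both genotypes, and the region across its higher-coordinate end, at 24.0% in the WT, was a gained one. Gained regions covered 47.2% of the Krt17 gene body, against 22.2% of that of Krt14, 4.94% of Krt16, 1.91% of Krt15 and none of the bodies of Krt5, Krt6a and Krt6b.

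Krt16, the other type I stress keratin and the neighbour of Krt17, had 10 listed regions and 2 gained ones in DNA that was otherwise methylated. The region across its higher-coordinate end, chr11:100248764-100249400, had 79.3% in the DKO and 45.4% in the WT (33.8 points, spread estimate 3.82 in the authors' deposited table, 22 positions). The other gained region is the single position chr11:100252435-100252435. It lies between Krt16 and Krt17, in the windows of both, with 65.4% in the DKO and 35.8% in the WT. The windows of these 2 genes share 1 more region, chr11:100250196-100251339, which stood at 83.3% in the DKO and 87.4% in the WT (-4.11 points, spread estimate 4.10 in the authors' deposited table). No other region was shared between the windows of 2 of the 7 genes. At Krt16, 7 of 10 regions had a lower mean in the DKO, with differences of -0.026 to -6.03 points, and they make up most of the 10 keratin regions with any difference in this direction. The furthest apart, chr11:100247662-100248100 inside the gene, had 89.9% in the DKO and 95.9% in the WT, at a spread estimate of 3.42 in the authors' deposited table.

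Krt6a, the type II stress keratin, had 7 listed regions and no gained one. The 4 regions inside its gene stood between 85.3% and 93.5% in the DKO, against 84.3% to 90.7% in the WT, with differences of 1.03 to 2.77 points. Of the 3 regions past the higher-coordinate end, chr15:101696581-101696823 was the furthest apart, with 86.8% in the DKO and 78.9% in the WT (7.91 points, spread estimate 4.18 in the authors' deposited table). The other 2, more than 4 kb out, were at 61.1% and 61.8% in the DKO and 58.4% and 56.6% in the WT. All 7 had the slightly higher mean in the DKO and none differed by 10 points. The long non-coding RNA gene Gm49428 lies over 2 of the regions inside Krt6a.

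Krt6b, the close relative of Krt6a in the same cluster, had no listed region, which is unlike 88.6% of protein-coding gene windows. The nearest listed regions lie 24.6 kb below and 9.74 kb above the gene. By the running number of positions, the authors' table counted 313 cytosine positions in the 38.6 kb between them, 1 per 123 bp, against 1 per 66.0 bp over chromosome 15. Positions of that stretch were therefore numbered by the authors, which does not show that reads covered them, and their levels are not given. Krt6a and Krt6b are closely similar in sequence, and the part of reads that align to both was not tested.

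**Figure D3:**
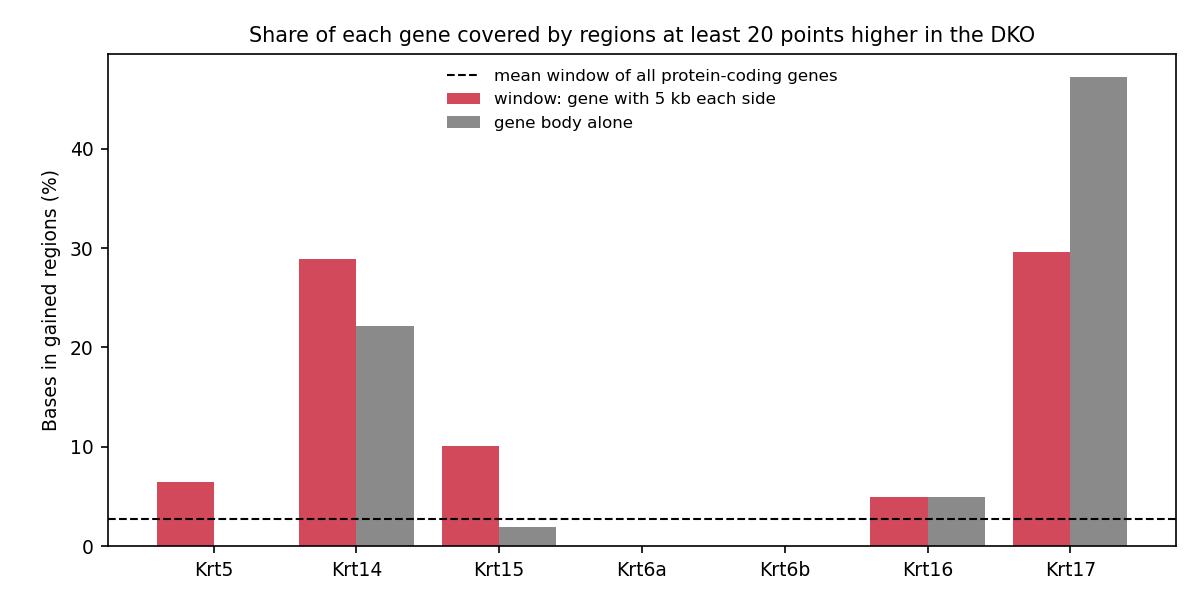
Percent of bases in gained regions for each keratin's window (gene with 5 kb on each side, red bars) and for its gene body alone (grey bars). The dashed line is the mean window of all 21896 protein-coding genes, 2.67%. Krt14 and Krt17 stand at 28.9% and 29.6% of the window, and Krt6a and Krt6b at 0.

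Gained regions lay in the windows of 5 of the 7 keratins, against 64.4% of all protein-coding gene windows, so that presence alone lies near the background. The keratin windows, at 12.8 to 15.8 kb, are shorter than the median of 27.1 kb for all genes. Among the 2339 protein-coding genes with windows of the keratins' lengths, a comparison added after the data were seen, 49.5% held a gained region. Gained regions were counted within 1 kb of a transcription start, or of either gene end for genes without a listed start, as for 5 keratins. They lay at 4 of 7 keratins (Krt14, Krt15, Krt16 and Krt17), against 17.9% of all genes under that rule. The shares are not alike, since 17491 of 21896 genes but only 2 of 7 keratins were counted at a listed start. Krt14 entered through a start 1480 bp inside the gene. Krt15 entered through short regions near its lower-coordinate end, and its strand was not used. With either gene end used for every gene, the count was 5 of 7 keratins against 23.6% of genes, and Krt5 was added through its 3′ side. By extent, the median keratin window was covered to 6.47% by gained regions, against a median of 1.29% over all genes. In the 2339 genes with windows of the keratins' lengths, also compared after the data were seen, the median was 0% and the mean 2.86%. Only 4 genes had a higher coverage than Krt17 and 6 a higher one than Krt14. Krt42 is among the genes above Krt17 and shares 3 gained regions with it, so these ranks are not separate. Krt15 was at 10.1% with 4.58% of genes above it, Krt5 at 6.47% with 13.3% above it, and Krt16 at 4.98% with 20.1% above it. With 10 kb on each side, coverage was 17.0% at Krt14, 3.97% at Krt5 and 9.29% at Krt16, and with gained regions within 500 bp merged it was 15.2% at Krt15, as merging adds the bases between them.

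The gained keratin regions differed little in level from the gained regions of the whole table. Their medians were 79.0% in the DKO and 43.0% in the WT, against 76.3% in the DKO and 45.6% in the WT over all 111028 gained regions. The median difference was 31.5 points at the keratins and 28.4 points over all, with median lengths of 512.5 and 345 bp. No test was run on these, since the regions were listed for their difference. By place, 7 of the 18 lay beyond the lower-coordinate end of their gene, 4 beyond the higher-coordinate end, 2 across the higher-coordinate end and 5 inside the gene. Over the whole table, 89.2% of the regions with 2 positions were 2 bp wide, so that a position is not always a separate CpG. Of the 18, 4 regions had 1 or 2 positions and 11 had at least 10.

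**Figure D4:**
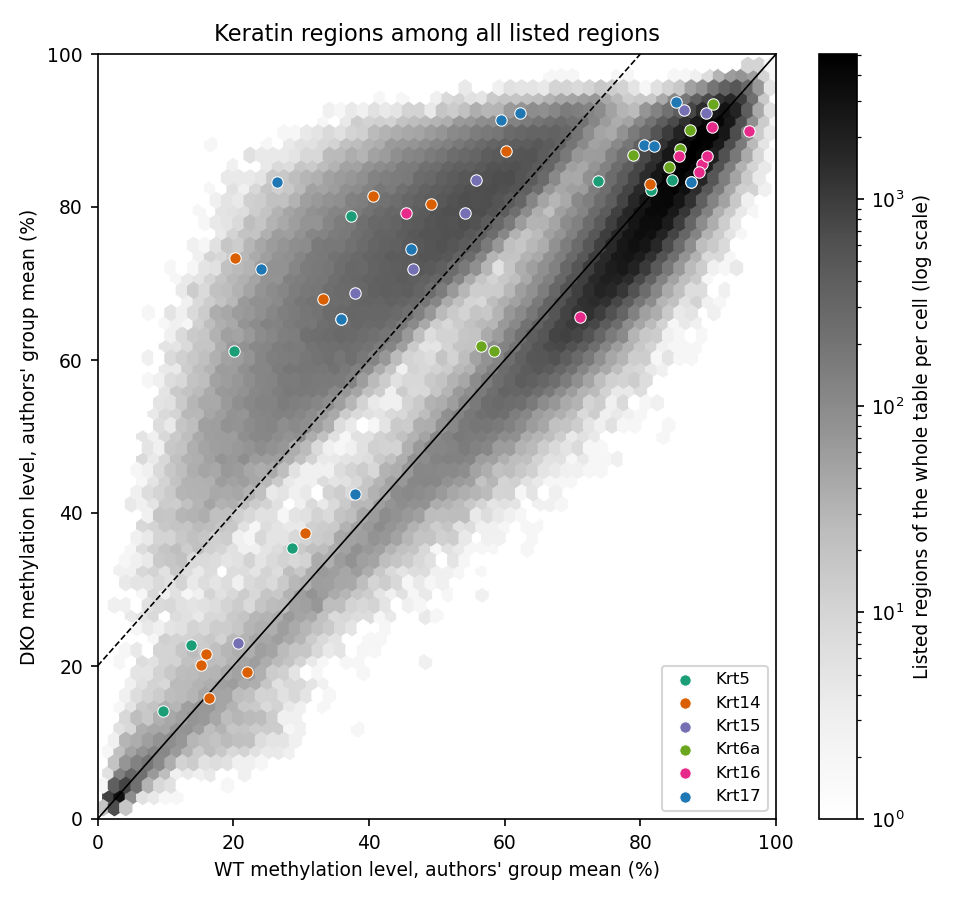
DKO against WT level (%, authors' group means) of the keratin regions, coloured by gene, over the density of all 484555 listed regions in grey (log scale). The solid line marks equal levels and the dashed line 20 points higher in the DKO. The listed keratin regions fall into a group above the dashed line and a group within 9.65 points of the solid line. The 7 Krt6a regions are all in the second. Extreme statistics ran from -4.03 to -7.06 in the first group and from 1.61 to 6.42 in the second. Only regions past the authors' bound are shown, and the gap between the groups was not tested.

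Gained regions were also listed at the genes next to the keratins of the type I cluster. Krt42, 1853 bp beyond Krt17, had the highest coverage of the 44 other keratins in the gene table, 32.0% of its window, and 3 of the 6 gained regions of Krt17 also lie in its window. Krt19, a keratin of simple and stratified epithelia 4861 bp beyond Krt15, had 4 gained regions and 13.9% coverage, and none of those 4 is among the gained regions of Krt15. Krt13 and Krt9, on the lower-coordinate sides of Krt15 and Krt14, had 7.17% and 2.48%. On chromosome 15, Krt71 (an inner root sheath keratin beyond Krt5) had 11.3%, and Gm5414, below Krt6b, had no gained region. Of the 44 other keratins, 40 held a gained region, where 64.4% of all gene windows did. That share was 49.5% in windows of the lengths of the 7. Windows of neighbouring keratins can share regions, and an excess was not tested. The median coverage of the 44 was 6.57%, close to that of the 7. Krt25 followed Krt42 with 27.4%.

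All listed regulators and anchors of these filaments held gained regions, where 64.4% of all gene windows did. That share was 49.5% in windows of the keratins' lengths, and no share matched for window length was computed for these lists. An excess over the background was therefore not tested. Among 20 genes known to regulate the basal and stress keratins, the median coverage was 7.23%, and the widest were the AP-1 factor Junb with 29.7% and the epithelial zinc finger factor Klf5 with 24.4%. Among 8 genes that anchor keratin filaments at desmosomes and hemidesmosomes, the median was 6.93%, led by the cytolinker Plec with 7.78% and desmoplakin (Dsp) with 7.65%. In each list 1 gene also held a region at least 10 points lower in the DKO. Median coverage at marker genes was 11.8% for 5 hair matrix genes, 2.61% for 6 melanocyte genes, 1.57% for 5 fibroblast and dermal papilla genes, 0.99% for 4 immune genes and 3.53% for 3 endothelial genes. Methylation at these genes does not measure expression, so the labelled cell type was not checked by them.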

How the data were processed

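Whole-genome bisulfite libraries (2 DKO and 2 WT) were grouped by their titles in the labels. The submitters' processing notes name Trim Galore (a read trimmer), Bismark (a bisulfite aligner) and GRCm38 (mm10). How regions were called, smoothed and filtered is not given in the sources used here. Each region in the authors' deposited table has 2 group means as a fraction, multiplied to percent here. It also gives, per the file headers, a statistic and a spread estimate, treated as a score with no fixed range. The depth is unknown, and values per library were not used here. The planned tests on reads were therefore not run. Differences were recomputed as DKO minus WT.

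Members and lists were chosen with earlier results of these data known. Named regions follow a rule (largest gain, widest gain, gains within 1 kb of a start, regions in 2 windows), and the others named were chosen after their values were seen. Gene positions and promoter sequences came from RefSeq (GRCm38.p6). All 7 genes matched the gene table, and 2 matched the promoter table, as did 17491 of 21896 protein-coding genes. Coverage is the percent of a window's bases under gained regions. Overlap and coverage counting was checked on simulated regions. Alternatives were other minimum differences, positions, lengths, windows, merging and overlap. Python 3.11.15, numpy 2.4.6, pandas 2.3.3 and matplotlib 3.10.9 were used.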

Additional observations from a re-analysis of the deposited data

How the results depend on the processing

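No paired analysis was possible because the table holds group means and no value per library, and for the same reason no library could be left out in turn. With a minimum difference of 10 or 30 points, 5 of 7 windows held a gained region, as with at least 10 positions, and with gene bodies alone 4 did. The share of all protein-coding genes, 64.4% in the main setting, moved as well. It was 68.3% at 10 points, 39.4% at 30 points, 54.8% with at least 10 positions and 52.1% with gene bodies alone. The 10-point setting could not change any keratin count, since no listed keratin region differed by between 9.65 and 25.1 points. The number of gained regions was 18, and it was 12 with a minimum of 30 points (23.1% of listed regions), 11 with at least 10 positions and 7 in gene bodies alone. The median difference of 31.5 points moved to 37.8 with a minimum of 30 points and to 40.8 with at least 10 positions, as both settings leave out small or short regions by construction. Median coverage moved to 1.91% in gene bodies alone, against 0.134% over all genes. The number of keratins with a gain at a start or gene end was 4. It was 2 when the whole region had to lie inside the 1 kb window. In a window of 250 bp before to 50 bp after, it was also 2. Shares of all genes under the last 2 settings are not given here. No region 10 points lower in the DKO appeared under any of these settings, 10 kb flanks included. Summary values under the alternatives not given here moved by less than 1.5 times, or for the median difference by less than the median spread estimate of the gained regions. Unknown depth limits all levels, most in regions of 1 or 2 positions.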

Other observations

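The DNA between the windows of the examined keratins was not part of the gene-based choice. Of all listed regions, 22.9% were gained. In the 57.2 kb between the windows of Krt15 and Krt14, 12 of 30 listed regions were gained, with levels of 51.8% to 84.7% in the DKO and 17.3% to 56.6% in the WT. Krt19 and Krt9 lie largely in this stretch, so gained regions given above for these genes can be counted here again. The widest difference there, at chr11:100167749-100168964, was 77.6% in the DKO against 31.6% in the WT in the authors' deposited table. In the 28.6 kb between the windows of Krt14 and Krt16, 6 of 19 listed regions were gained. Their levels were 70.0% to 81.4% in the DKO and 29.2% to 55.8% in the WT. No region in either stretch was 10 points lower in the DKO. On chromosome 15, the 2.76 kb between the windows of Krt6a and Krt5 held 1 listed region, which was not gained.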
